A study of Rattus norvegicus with 21 samples.

Results

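The sarcomere is the contractile unit of heart muscle, and the genes described here encode its filaments, its Z-disc and the proteins that build it or guard it under strain. A fixed list of 39 symbols defined the set, and 31 of the 39 had a row in the deposited table of 17085 gene symbols. Myl4, Ttn, Myom1, Ldb3, Tcap, Nebl, Lmod2 and Murc had no row under these symbols and were not analysed here. Cavin4, the newer symbol of Murc, had a row and is given with the related genes. All 31 passed the filter on low counts, which left 11742 genes in all to test. By role, 20 were structural genes, 7 were muscle stress genes (Csrp3, Xirp1, Xirp2, Cryab, Hspb7, Fhl2 and Flnc) and 4 were assembly, kinase or maintenance genes (Unc45b, Smyd1, Mylk3 and Ky).

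The study sequenced bulk mRNA from tissue labelled infarct zone in Sprague Dawley rats, in 7 groups of 3 libraries. The 3 injuries were made by tying the left anterior descending coronary artery, and hearts were collected 24 h after infarction. In the F series, MI6h_F had 6 h of ischaemia and 18 h of reperfusion, MI1h_F had 1 h of ischaemia and 23 h of reperfusion, and MI24h_F had a ligation of 24 h. Without F, MI6h_R had late reperfusion after 6 h, MI1h_R had early reperfusion after 1 h, and MI24h had the ligation of 24 h. Sham hearts, with the same tissue label, were the controls, and no Sham group had F. The labels did not spell out F; the study's design names a pretreatment with fenofibrate, an agonist of the nuclear receptor PPARα. Age, sex and whether the libraries of a group came from separate animals were not given, so p-values measure only the spread between these libraries.

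In a sarcomere, myosin thick filaments pull on actin thin filaments, and calcium bound to troponin opens the thin filament to myosin. The Z-disc anchors thin filaments and ties neighbouring sarcomeres together. Filamin C (Flnc) and the Xin-repeat proteins Xirp1 and Xirp2 are known to gather where myofibrils are damaged or remodelled, and αB-crystallin (Cryab) and Hspb7 are small heat shock proteins that protect filaments.

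Total counts ran between 12208041 and 18393795 a library. Mitochondrial transcripts took 11.3% to 20.2% of the counts in injured libraries and 33.5% to 38.5% in Sham, and TMM scaling factors were 0.996 to 1.17 in injured libraries and 0.535 to 0.677 in Sham. Levels are given as scaled CPM, computed on library sizes multiplied by these factors, unless TPM, which also corrects for gene length, is named. Tests are edgeR quasi-likelihood contrasts from 1 fit to the 21 libraries, adjusted by Benjamini-Hochberg over all genes tested, and a gene was called at an adjusted p under 0.05. Fold changes are on the log2 scale with standard errors. Where groups are said not to overlap, the share of all genes tested that did not overlap was not computed. For genes called in the same comparison, a lack of overlap is description and no added support. In bulk tissue, fewer cells of a type and less RNA per cell cannot be told apart.

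On the TPM scale the highest gene of the set in Sham was cardiac troponin I (Tnni3), at 9127 ± 1106 TPM (mean ± SD, n = 3, as for the next values). The essential light chain Myl3 followed at 7301 ± 974 TPM, then Cryab at 6023 ± 1091, tropomyosin 1 (Tpm1) at 5986 ± 859, cardiac actin (Actc1) at 5580 ± 2293 and cardiac troponin T (Tnnt2) at 5411 ± 1111 TPM. In the order from Cryab to Tnnt2, neighbours differed by less than their SD. Far lower in Sham stood Flnc at 21.2 ± 8.21 TPM, Xirp2 at 20.1 ± 8.37 TPM and Xirp1 at 11.9 ± 6.75 TPM. The row named Myl2, the symbol of the ventricular regulatory light chain, held 11.6 ± 6.05 TPM in Sham. The RefSeq gene table gives Myl2 both as a gene and as a synonym of the fast skeletal gene Myl11, and the deposited table has no gene identifiers, so what this row counts is uncertain.

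**Figure D1:**
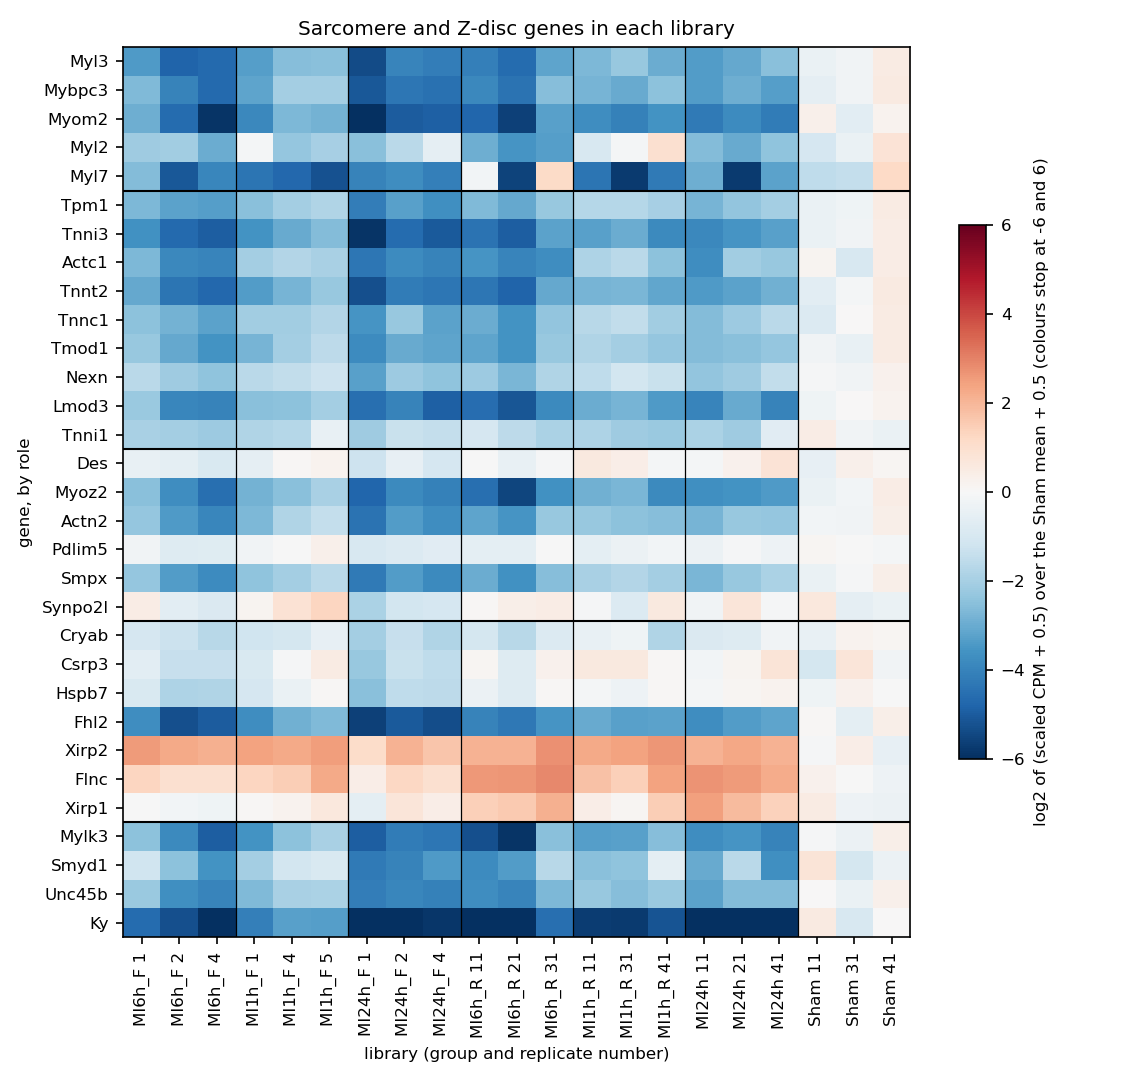
Each of the 31 genes (rows, by role) in each of the 21 libraries (columns), as log2 of (scaled CPM + 0.5) over (Sham mean + 0.5), with colours that stop at -6 and 6; red is above the Sham mean and blue below it. Most structural rows and the assembly rows are blue in injured libraries, and the Xirp2 and Flnc rows are red in all 18.

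The injured groups without F were each compared with Sham, to ask what infarction with early, late or no reperfusion did to the tissue. Most structural genes stood far below Sham after each injury, while Xirp2 and Flnc stood above it. In MI6h_R 3 of the 31 genes rose and 22 fell, where 29.3% of all genes tested rose, 28% fell and 57.2% were called in either direction. In MI1h_R 2 rose and 20 fell, where 25.4% of all genes rose, 24.1% fell and 49.5% were called. In MI24h 3 rose and 22 fell, where 28% of all genes rose, 26.2% fell and 54.3% were called. The median log2 fold change of the 31 was -2.91 in MI6h_R, -1.93 in MI1h_R and -2.49 in MI24h, beside 0.06, 0.06 and 0.07 over all genes tested. The comparisons share the Sham libraries. Sham replicate 31 held the least Actc1 and the most Csrp3 of the 3 Sham libraries. It also stood apart outside the set. The natriuretic peptide gene Nppa was at 1375 scaled CPM in it, against 148.3 and 62.07 in Sham replicates 11 and 41. In the same order, the myosin heavy chain gene Myh7 was at 6074, against 1724 and 1237, and Myh6 at 6661, against 21390 and 22300. Without Sham replicate 31 the members called were 25 in MI6h_R, 23 in MI1h_R and 25 in MI24h.

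The split of calls depended on the scaling. When libraries were scaled by their totals alone, without TMM, the all-gene median became 0.92 in MI6h_R, 0.82 in MI1h_R and 0.80 in MI24h. The members' calls then became 5 up and 20 down in MI6h_R, 5 up and 19 down in MI1h_R, and 7 up and 21 down in MI24h. On log2(TPM + 1) they were 7 up and 19 down in MI6h_R, 6 up and 18 down in MI1h_R, and 7 up and 19 down in MI24h.

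Among thick filament and M-band genes, 4 of 5 fell in MI6h_R, 4 in MI1h_R and 5 in MI24h. These counts include the uncertain Myl2 row in MI6h_R and MI24h, and Myl7, a row of few counts, in MI1h_R and MI24h. Myl3 stood at 549.8, 388 and 1045 scaled CPM in MI6h_R, 1432, 1918 and 1181 in MI1h_R and 915, 1098 and 1626 in MI24h, against 7074, 8008 and 13040 in Sham. Myl3, which stabilises the myosin lever arm, fell, with log2 fold changes of -3.83 ± 0.49 in MI6h_R, -2.63 ± 0.47 in MI1h_R and -2.95 ± 0.47 in MI24h. Mybpc3 stood at 196, 130.5 and 487 scaled CPM in MI6h_R, 410.1, 352 and 528 in MI1h_R and 285, 380.4 and 288 in MI24h, against 1973, 2448 and 4170 in Sham. The myosin-binding protein Mybpc3, which links thick and thin filaments, fell, with log2 fold changes of -3.40 ± 0.53 in MI6h_R, -2.74 ± 0.52 in MI1h_R and -3.17 ± 0.52 in MI24h. Myom2 stood at 89, 49.1 and 249.7 scaled CPM in MI6h_R, 182, 144 and 197 in MI1h_R and 127, 173 and 129 in MI24h, against 2930, 1523 and 2740 in Sham. Myom2, which holds thick filaments together at the M-band, fell, with log2 fold changes of -4.21 ± 0.68 in MI6h_R, -3.78 ± 0.67 in MI1h_R and -4.07 ± 0.68 in MI24h. Every injured library lay below every Sham library for these 3 genes.

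All 9 thin filament genes fell in each of the 3 groups. Tnni3 stood at 450.4, 321 and 1074 scaled CPM in MI6h_R, 1024, 1246 and 692 in MI1h_R and 664, 844 and 1027 in MI24h, against 7538, 8442 and 13520 in Sham. For Tnni3, the inhibitory troponin subunit, every injured library lay below every Sham library. Actc1 stood at 1176, 878 and 1040 scaled CPM in MI6h_R, 3797, 4460 and 2423 in MI1h_R and 1020, 3234 and 2841 in MI24h, against 15310, 7073 and 18280 in Sham. Tpm1 stood at 1520, 1131 and 1974 scaled CPM in MI6h_R, 2922, 2903 and 2425 in MI1h_R and 1375, 1829 and 2341 in MI24h, against 7228, 8028 and 13410 in Sham. Cardiac actin fell, with log2 fold changes of -3.72 ± 0.46 in MI6h_R, -1.93 ± 0.42 in MI1h_R and -2.52 ± 0.43 in MI24h, and Tpm1, which lies along the actin filament, with -2.63 ± 0.32 in MI6h_R, -1.80 ± 0.31 in MI1h_R and -2.37 ± 0.32 in MI24h. Tnnt2 stood at 444, 314 and 1074 scaled CPM in MI6h_R, 1308, 1335 and 1037 in MI1h_R and 844, 946 and 1210 in MI24h, against 5654, 8313 and 12730 in Sham. Tnnt2, the subunit that ties troponin to tropomyosin, fell, with log2 fold changes of -3.87 ± 0.52 in MI6h_R, -2.86 ± 0.49 in MI1h_R and -3.15 ± 0.50 in MI24h. The calcium-binding subunit Tnnc1 fell, with log2 fold changes of -2.91 ± 0.40 in MI6h_R, -1.73 ± 0.38 in MI1h_R and -2.07 ± 0.38 in MI24h. The pointed-end cap Tmod1 fell, with log2 fold changes of -2.92 ± 0.40 in MI6h_R, -2.04 ± 0.39 in MI1h_R and -2.49 ± 0.39 in MI24h, the actin-binding Z-disc protein Nexn with -2.19 ± 0.30 in MI6h_R, -1.31 ± 0.29 in MI1h_R and -1.95 ± 0.30 in MI24h and the filament nucleator Lmod3 with -5.11 ± 0.62 in MI6h_R, -3.27 ± 0.56 in MI1h_R and -3.91 ± 0.58 in MI24h. No injured group overlapped Sham for any of these 8 genes. All were called in these same comparisons, so the lack of overlap is no added support and has no share over all genes tested beside it. With library size alone Nexn was at -0.52 in MI1h_R (not called), and on log2(TPM + 1) Nexn was at -0.38 in MI1h_R (not called) and Tnnc1 at -0.77 in MI1h_R (not called).

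Of the 6 Z-disc genes, 3 fell in MI6h_R, 3 in MI1h_R and 3 in MI24h, and the others were not called. Actn2 stood at 288, 223 and 533 scaled CPM in MI6h_R, 536, 474 and 436 in MI1h_R and 369.9, 535 and 522 in MI24h, against 2303, 2213 and 3264 in Sham. Actn2, the actinin that cross-links thin filaments, fell, with log2 fold changes of -2.90 ± 0.43 in MI6h_R, -2.43 ± 0.42 in MI1h_R and -2.45 ± 0.42 in MI24h. Myoz2 stood at 73.9, 36.5 and 135 scaled CPM in MI6h_R, 231, 251 and 118 in MI1h_R and 132, 142 and 160.1 in MI24h, against 1309, 1505 and 2301 in Sham. Myoz2, an actinin partner that restrains calcineurin, fell, with log2 fold changes of -4.38 ± 0.53 in MI6h_R, -3.09 ± 0.50 in MI1h_R and -3.56 ± 0.51 in MI24h, and the small muscle protein gene Smpx with -3.02 ± 0.38 in MI6h_R, -1.92 ± 0.36 in MI1h_R and -2.28 ± 0.37 in MI24h. None of these genes overlapped Sham in an injured group. Des stood at 4436, 3293 and 4267 scaled CPM in MI6h_R, 6781, 5807 and 4122 in MI1h_R and 4108, 5321 and 7754 in MI24h, against 3152, 5425 and 4768 in Sham. Desmin, the intermediate filament around Z-discs, overlapped Sham in all 3 groups and was not called, with -0.15 ± 0.29 in MI6h_R, 0.33 ± 0.29 in MI1h_R and 0.36 ± 0.29 in MI24h. Pdlim5, a PDZ and LIM domain adaptor, had -0.37 ± 0.19 in MI6h_R, -0.36 ± 0.19 in MI1h_R and -0.23 ± 0.19 in MI24h, and Synpo2l, an actin binder of the Z-disc, 0.31 ± 0.42 in MI6h_R, 0.03 ± 0.42 in MI1h_R and 0.22 ± 0.42 in MI24h, none called. With library size alone Des was at 0.70 in MI6h_R, 1.09 in MI1h_R and 1.10 in MI24h, all called. Synpo2l was, on log2(TPM + 1), at 1.54 in MI6h_R (called) and 1.22 in MI24h (called), and with library size alone at 1.14 in MI6h_R (called) and 0.95 in MI24h (not called), where Pdlim5 was at 0.49 in MI24h (called).

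Some rows had few counts and are given as counts. Myl2 had 9, 2 and 4 counts in MI6h_R, 40, 82 and 213 in MI1h_R and 9, 6 and 12 in MI24h, against 32, 53 and 109 in Sham. This row fell, at -4.58 ± 0.90 in MI6h_R and -3.41 ± 0.83 in MI24h, and was at 0.20 ± 0.71 in MI1h_R, not called. Myl7 had 484, 1 and 1060 counts in MI6h_R, 10, 0 and 14 in MI1h_R and 41, 0 and 35 in MI24h, against 91, 103 and 547 in Sham. Myl7, the atrial regulatory light chain, was high in 2 of the 3 MI6h_R libraries and overlapped Sham there, at 0.08 ± 1.14, not called. It fell, at -5.51 ± 1.5 in MI1h_R and -3.87 ± 1.33 in MI24h. The call in MI24h was lost without Sham replicate 41 (-2.35) or without MI24h replicate 21 (-3.26), and on log2(TPM + 1), at -1.95. With limma-voom Myl7 was at -6.13 in MI1h_R (not called) and -7.34 in MI24h (not called).

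Tnni1 had 26, 11 and 8 counts in MI6h_R, 6, 4 and 4 in MI1h_R and 6, 5 and 25 in MI24h, against 45, 28 and 20 in Sham. Tnni1, the slow skeletal troponin I that the fetal heart uses, fell, with log2 fold changes of -1.91 ± 0.64 in MI6h_R, -3.14 ± 0.71 in MI1h_R and -1.87 ± 0.65 in MI24h. In MI6h_R the call was lost without Sham replicate 11 (-1.57), without MI6h_R replicate 21 (-1.80) or without MI6h_R replicate 31 (-1.62). In MI24h it was lost without Sham replicate 11 (-1.55), without MI24h replicate 11 (-1.58) or without MI24h replicate 21 (-1.47), and the value was -3.00 without MI24h replicate 41. Tnni1 was, on log2(TPM + 1), at -0.52 in MI6h_R (not called) and -0.73 in MI24h (not called), and with library size alone at -1.08 in MI6h_R (not called) and -1.19 in MI24h (not called).

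**Figure D2:**
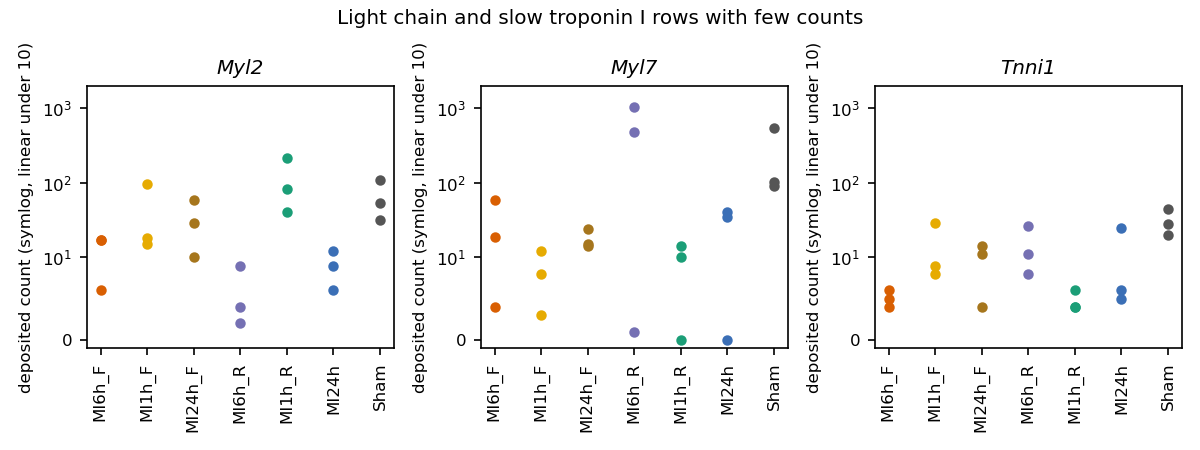
Deposited counts of the rows Myl2, Myl7 and Tnni1 in each library, by group, on a vertical axis that is linear under 10 and logarithmic above. Myl7 reaches 484 and 1060 in 2 MI6h_R libraries and 547 in 1 Sham library, and every other library has at most 103 counts of Myl7.

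The 4 assembly, kinase and maintenance genes fell in MI6h_R and MI24h, and 3 of them in MI1h_R. Mylk3 stood at 12.8, 8.13 and 88.1 scaled CPM in MI6h_R, 51.3, 52.6 and 85.5 in MI1h_R and 37.5, 43.4 and 31.7 in MI24h, against 483, 404 and 645 in Sham. The cardiac myosin light chain kinase gene Mylk3 fell, with log2 fold changes of -3.81 ± 0.74 in MI6h_R, -3.02 ± 0.72 in MI1h_R and -3.77 ± 0.74 in MI24h. Unc45b stood at 17.1, 14.3 and 35 scaled CPM in MI6h_R, 47.9, 38.5 and 49 in MI1h_R and 24.3, 37.6 and 37.7 in MI24h, against 234, 175 and 280 in Sham. The myosin chaperone gene Unc45b fell, with log2 fold changes of -3.38 ± 0.42 in MI6h_R, -2.35 ± 0.40 in MI1h_R and -2.79 ± 0.41 in MI24h. Smyd1 stood at 6.69, 9.27 and 30 scaled CPM in MI6h_R, 16.9, 17.8 and 66 in MI1h_R and 11.6, 31 and 7.27 in MI24h, against 169, 47.1 and 77.6 in Sham. Smyd1, a methyltransferase of muscle that takes part in myosin assembly, fell, at -2.67 ± 0.74 in MI6h_R and -2.55 ± 0.74 in MI24h, and was at -1.54 ± 0.71 in MI1h_R, where it overlapped Sham and was not called. Smyd1 was, on log2(TPM + 1), at -1.45 in MI6h_R (not called) and -1.47 in MI24h (not called). In MI1h_R Smyd1 was called by limma-voom, and by edgeR without MI1h_R replicate 41. Ky had 3, 3 and 37 counts in MI6h_R, 8, 8 and 18 in MI1h_R and 6, 6 and 3 in MI24h, against 895, 328 and 547 in Sham. The counts of Ky, which encodes a protein needed to maintain muscle, were lower than in Sham in every injured library. It fell, at -6.20 ± 0.85 in MI6h_R, -6.18 ± 0.86 in MI1h_R and -7.40 ± 0.93 in MI24h, the lowest log2 fold change of the 31 genes in each of these comparisons.

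The 7 stress genes did not share 1 course. Xirp2 and Flnc rose in every group, Xirp1 in MI6h_R and MI24h, and Fhl2 fell in every group, while Csrp3 and Hspb7 were not called under TMM scaling. Xirp2 stood at 1691, 1689 and 2677 scaled CPM in MI6h_R, 1962, 2178 and 2553 in MI1h_R and 1710, 2012 and 1722 in MI24h, against 389, 535 and 282 in Sham. Xirp2 rose by 2.33 ± 0.27 in MI6h_R, 2.47 ± 0.27 in MI1h_R and 2.17 ± 0.27 in MI24h, and its edgeR adjusted p was 1.69e-06 in MI6h_R, 2.87e-06 in MI1h_R and 3.6e-06 in MI24h. Flnc stood at 1956, 2017 and 2431 scaled CPM in MI6h_R, 1085, 883 and 1748 in MI1h_R and 2128, 1911 and 1531 in MI24h, against 393, 321 and 259 in Sham. Flnc rose by 2.72 ± 0.30 in MI6h_R, 1.93 ± 0.30 in MI1h_R and 2.52 ± 0.30 in MI24h. No injured library overlapped Sham for either gene. Xirp1 stood at 299, 336 and 489 scaled CPM in MI6h_R, 147, 121 and 316 in MI1h_R and 609, 414 and 289 in MI24h, against 158, 89.6 and 87.6 in Sham. Xirp1 rose by 1.75 ± 0.38 in MI6h_R and 1.97 ± 0.38 in MI24h. In MI1h_R it overlapped Sham and was not called, at 0.80 ± 0.37 (edgeR adjusted p = 0.0831). That result depended on the setting: Xirp1 in MI1h_R was called at 1.58 with library size alone, 1.56 on log2(TPM + 1), 0.76 with the length trend removed, 1.13 without Sham replicate 11 and 1.05 without MI1h_R replicate 31.

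Fhl2 stood at 56.1, 46.1 and 78.5 scaled CPM in MI6h_R, 114, 97.2 and 98.5 in MI1h_R and 68.6, 89.9 and 103 in MI24h, against 957, 615 and 1188 in Sham. Fhl2, a LIM protein of the Z-disc and the nucleus, fell, with log2 fold changes of -3.93 ± 0.40 in MI6h_R, -3.16 ± 0.38 in MI1h_R and -3.40 ± 0.39 in MI24h, the direction of most structural genes. Csrp3 stood at 1836, 1008 and 2025 scaled CPM in MI6h_R, 2590, 2531 and 1815 in MI1h_R and 1529, 1947 and 2942 in MI24h, against 812, 2847 and 1470 in Sham. In scaled CPM Csrp3, the muscle LIM protein of the Z-disc, overlapped Sham in each group and was not called, with -0.07 ± 0.42 in MI6h_R, 0.43 ± 0.42 in MI1h_R and 0.32 ± 0.42 in MI24h. The Sham libraries themselves differed here, with replicate 31 highest. Csrp3 was, on log2(TPM + 1), at 1.26 in MI6h_R (called), 1.496 in MI1h_R (called) and 1.46 in MI24h (called), and with library size alone at 0.76 in MI6h_R (not called), 1.18 in MI1h_R (called) and 1.03 in MI24h (called). Without Sham replicate 31 it was at 1.04 in MI1h_R (called). Hspb7 stood at 1534, 1128 and 2059 scaled CPM in MI6h_R, 1781, 1596 and 2042 in MI1h_R and 1794, 2105 and 2274 in MI24h, against 1657, 2310 and 1894 in Sham. In scaled CPM Hspb7 overlapped Sham in each group, with -0.31 ± 0.32 in MI6h_R, -0.11 ± 0.32 in MI1h_R and 0.07 ± 0.32 in MI24h, none called. Hspb7 was, on log2(TPM + 1), at 0.86 in MI6h_R (called), 0.79 in MI1h_R (called) and 1.09 in MI24h (called), and with library size alone at 0.53 in MI6h_R (not called), 0.66 in MI1h_R (not called) and 0.80 in MI24h (called). In TPM, which is not TMM scaled, Hspb7 lay at 948 to 1571 in MI6h_R, 922 to 1404 in MI1h_R and 1246 to 1592 in MI24h, against 514 to 818 in Sham, without overlap. Cryab stood at 1478, 977 and 1747 scaled CPM in MI6h_R, 2215, 2530 and 885 in MI1h_R and 1664, 1818 and 2681 in MI24h, against 2284, 3548 and 3355 in Sham. Cryab fell, at -1.13 ± 0.34 in MI6h_R (edgeR adjusted p = 0.0093), and was at -0.71 ± 0.34 in MI1h_R and -0.58 ± 0.34 in MI24h, not called. The call in MI6h_R was lost without MI6h_R replicate 21 (-0.93), and the value was 0.10 on log2(TPM + 1), -0.27 with library size alone and -0.37 with the length trend removed, none called. In MI1h_R Cryab was called by DESeq2, and by edgeR without Sham replicate 11 or without MI1h_R replicate 31.

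**Figure D3:**
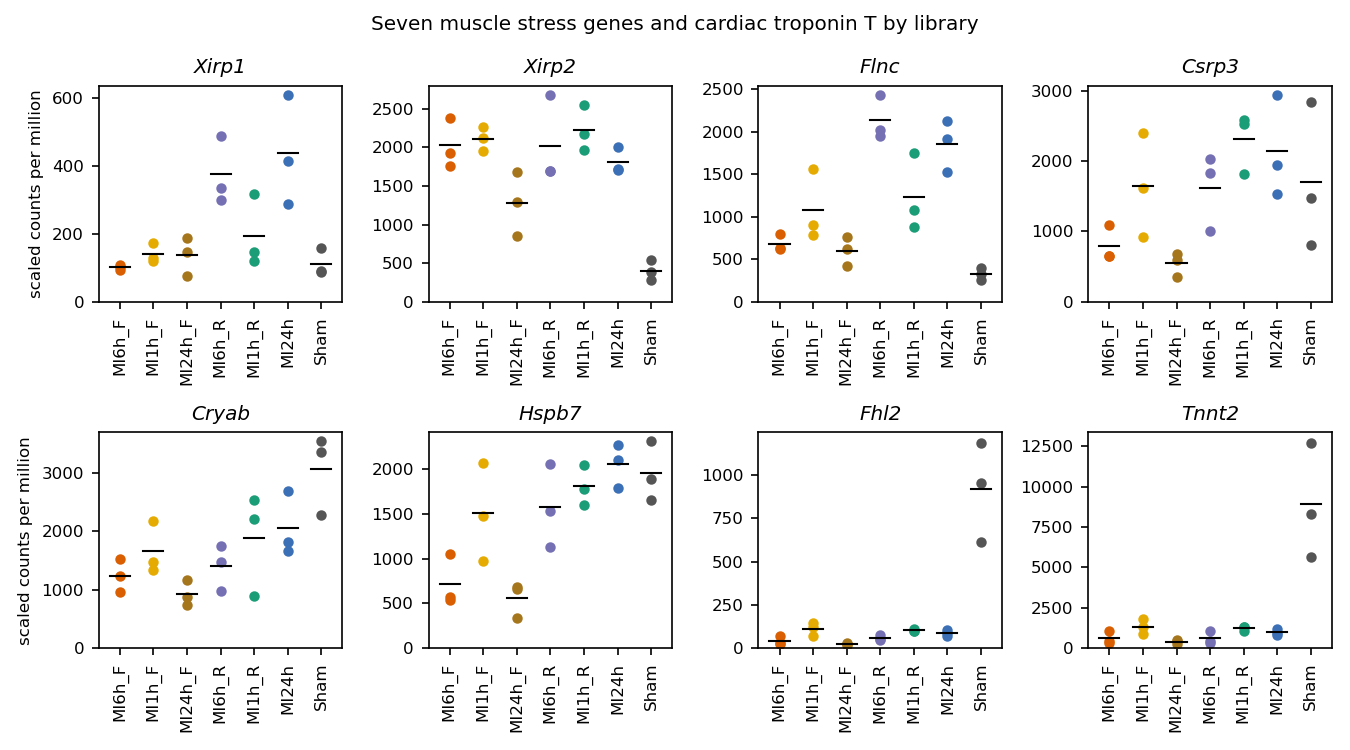
Scaled CPM of the 7 stress genes and of Tnnt2 in each library, by group; points are libraries and the line is the mean of the 3. Xirp2 and Flnc lie above Sham in all 6 injured groups, Xirp1 stands above it in MI6h_R and MI24h, and Fhl2 and Tnnt2 lie below Sham in all 18 injured libraries.

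The sequence before the start of 5 of these genes is printed to show a motif that stress and structural genes shared. Of the 31 genes, 26 had an entry in the RefSeq promoter table of build GRCr8, and the 250 bases before each start were searched on both strands for 5 motifs. The authors used build rn7, per the submitters' processing notes, and these 5 genes were picked after the search. The MEF2 consensus, the site of a muscle transcription factor family, was found for 8 of the 26 genes and for 3.32% of the 27457 genes in the table. The 8 were Mybpc3, Myoz2, Smpx, Synpo2l, Xirp1, Xirp2, Hspb7 and Fhl2, which are 4 of the 17 structural and 4 of the 5 stress genes with an entry. The AP-1 motif TGANTCA was found for Xirp1, Xirp2 and Lmod3, and for 6.99% of all genes. The MCAT motif CATTCC was found for 7 genes of the set (12.9% of all genes), the CArG box for Myl3 and Fhl2 (1.62% of all genes), and the heat shock motif GAANNTTC for 0 (7.71% of all genes). The lines run 5′ to 3′ on the gene's strand and end at the base before the start. Capitals mark the MEF2 consensus and, in Xirp1 and Xirp2, also the AP-1 motif upstream of it, and the marked motifs do not overlap.
Xirp1 (chr8:128635012-128635261, minus strand, the first of 3 windows): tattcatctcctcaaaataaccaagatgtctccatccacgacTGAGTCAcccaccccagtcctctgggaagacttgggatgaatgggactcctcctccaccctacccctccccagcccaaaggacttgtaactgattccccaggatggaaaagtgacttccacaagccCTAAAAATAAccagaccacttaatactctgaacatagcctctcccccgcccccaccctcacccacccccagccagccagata
Xirp2 (chr3:72533936-72534185, plus strand): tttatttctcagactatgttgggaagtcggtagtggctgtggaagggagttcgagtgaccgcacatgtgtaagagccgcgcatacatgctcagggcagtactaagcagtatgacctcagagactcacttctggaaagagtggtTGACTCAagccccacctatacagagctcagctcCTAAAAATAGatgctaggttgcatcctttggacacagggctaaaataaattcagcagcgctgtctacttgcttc
Hspb7 (chr5:159010509-159010758, plus strand): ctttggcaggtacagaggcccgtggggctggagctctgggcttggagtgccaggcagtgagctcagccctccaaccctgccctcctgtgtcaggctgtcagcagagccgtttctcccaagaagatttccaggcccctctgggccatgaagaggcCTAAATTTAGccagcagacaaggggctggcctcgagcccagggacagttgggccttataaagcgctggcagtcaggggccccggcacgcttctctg
Mybpc3 (chr3:97550811-97551060, plus strand): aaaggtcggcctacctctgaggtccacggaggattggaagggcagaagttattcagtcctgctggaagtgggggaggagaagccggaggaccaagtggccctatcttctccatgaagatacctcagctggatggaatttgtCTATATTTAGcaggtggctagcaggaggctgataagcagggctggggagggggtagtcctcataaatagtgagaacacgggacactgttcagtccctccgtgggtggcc
Myoz2 (chr2:213852779-213853028, minus strand): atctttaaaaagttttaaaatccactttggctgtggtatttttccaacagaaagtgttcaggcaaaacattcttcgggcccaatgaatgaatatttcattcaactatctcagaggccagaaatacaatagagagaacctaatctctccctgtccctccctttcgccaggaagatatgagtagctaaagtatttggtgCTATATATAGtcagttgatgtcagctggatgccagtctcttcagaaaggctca

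In the Xirp1 window the AP-1 motif lay 208 to 202 bases and the MEF2 consensus 82 to 73 bases before the start, and in Xirp2 they lay 107 to 101 and 74 to 65 bases before it. The MEF2 consensus lay 96 to 87 bases before the start in Hspb7, 109 to 100 in Mybpc3 and 53 to 44 in Myoz2. Genes that hold it thus include Xirp2, which rose in the 3 groups, Hspb7, which was not called, and Mybpc3 and Myoz2, which fell. A match is a description of letters and not a site of binding.

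The structural and stress lists were set side by side in each library by the mean of log2(TPM + 1) over the 7 stress genes minus that over the 20 structural genes. This difference was 2.504, 2.92 and 2.33 in MI6h_R, 1.82, 1.67 and 1.95 in MI1h_R and 2.58, 2.42 and 2.21 in MI24h, against -0.29, -0.03 and -0.89 in Sham. By these means every injured library was above every Sham library, and the MI1h_R libraries lay below all those of MI6h_R and MI24h. The mean of the 9 injured libraries lay 2.67 above that of Sham, with an SD of 0.399 over the 9. It lay 1.80 above with Unc45b, Smyd1, Ky, Smpx and Synpo2l counted as stress genes. With medians over genes in place of means it lay 0.21 above, less than the SD of 0.692 over the 9. The lists were chosen with earlier results of these data known. By count, 16 of 20 structural genes fell in MI6h_R, 16 in MI1h_R and 17 in MI24h, and 0 rose. The 20 include the uncertain Myl2 row, which was among those that fell in MI6h_R and MI24h. Of the 7 stress genes 3 rose and 2 fell in MI6h_R, 2 rose and 1 fell in MI1h_R, and 3 rose and 1 fell in MI24h. Of all genes tested 29.3% rose and 28% fell in MI6h_R, 25.4% and 24.1% in MI1h_R, and 28% and 26.2% in MI24h. The 2 of 7 that rose in MI1h_R were near the share of all genes, and 7 genes are too few to set the other counts apart from it. The rises were those of Xirp2 and Flnc, with Xirp1 in MI6h_R and MI24h. Median log2 fold changes were -2.97, -2.23 and -2.50 for structural genes in these groups, and -0.07, 0.43 and 0.32 for stress genes.

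In summed TPM, structural genes were at 7540 to 13600 in MI6h_R, 13600 to 16700 in MI1h_R and 9870 to 15400 in MI24h, against 34100 to 43400 in Sham. Stress genes summed to 8710 to 14400 TPM in MI6h_R, 9030 to 14200 in MI1h_R and 11400 to 16000 in MI24h, against 7850 to 11400 in Sham. All injured structural sums lay below Sham, while the stress sums of MI6h_R and MI1h_R overlapped it. Within the Z-disc, Csrp3 over Actn2 in TPM was 16.7 to 29 in MI6h_R, 18.4 to 23.1 in MI1h_R and 16 to 24.8 in MI24h, against 1.55 to 5.63 in Sham. Actn2 over Tnni3 was 0.106 to 0.148 in MI6h_R, 0.0826 to 0.134 in MI1h_R and 0.109 to 0.135 in MI24h, against 0.0513 to 0.0652 in Sham. Both ratios were above Sham in every injured library. Not every ratio of such genes was: Tnnt2 over Tnni3 was 0.643 to 0.663 in MI6h_R, against 0.497 to 0.654 in Sham, with overlap. In scaled CPM Actn2 fell in each of these groups, while Csrp3 was not called.

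**Figure D4:**
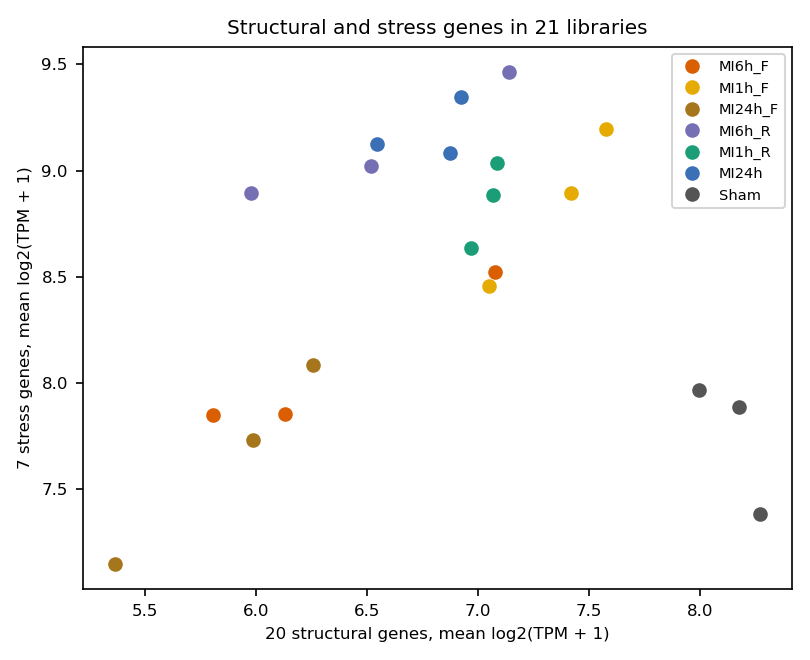
Mean log2(TPM + 1) of the 7 stress genes (vertical) against that of the 20 structural genes (horizontal), 1 point per library, coloured by group. Sham libraries lie at the right, at 7.995 to 8.268 on the structural axis, and the lowest point on both axes is an MI24h_F library, at 7.144 for stress and 5.363 for structural genes.

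Related sarcomere genes outside the set moved in both directions. Of 41 tested, 6 rose and 23 fell in MI6h_R, 9 rose and 21 fell in MI1h_R, and 7 rose and 21 fell in MI24h. The tropomyosins Tpm3 and Tpm4 rose, by 1.84 ± 0.21 and 1.62 ± 0.22 in MI24h, as did the focal adhesion gene Zyx, by 1.60 ± 0.18, and the ankyrin-repeat gene Ankrd2, by 3.70 ± 0.94. In MI24h the α myosin heavy chain gene Myh6 fell, at -4.03 ± 0.61, the tropomodulin gene Tmod4 at -4.67 ± 0.67, and Trim63, a muscle ubiquitin ligase gene, at -2.81 ± 0.45. Cavin4, a caveolar protein gene of muscle, was at -0.94 ± 0.44 in MI6h_R, -0.95 ± 0.44 in MI1h_R and -0.25 ± 0.44 in MI24h, none called.

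Markers of heart muscle cells outside the sarcomere also fell, with 10 of 10 in MI6h_R, 10 in MI1h_R and 10 in MI24h, and none was at 0 in all libraries of a group. Their summed TPM was 3150 to 9520 in MI6h_R, 6600 to 7580 in MI1h_R and 6120 to 7140 in MI24h, against 32000 to 42800 in Sham. Of 7 neutrophil markers tested 6 rose in MI6h_R, 6 in MI1h_R and 7 in MI24h. The 8 with a row summed to 4450 to 6940 TPM in MI6h_R, 2230 to 4500 in MI1h_R and 1500 to 9890 in MI24h, against 51.4 to 169 in Sham. Of 9 macrophage markers 6 rose and 2 fell in MI6h_R, 6 rose and 2 fell in MI1h_R, and 5 rose and 2 fell in MI24h. They summed to 2900 to 9440 TPM in MI6h_R, 3910 to 5380 in MI1h_R and 5230 to 6920 in MI24h, against 314 to 1400 in Sham. Of 8 fibroblast markers 6 fell in MI6h_R, 4 fell and 1 rose in MI1h_R, and 6 fell in MI24h. They summed to 759 to 1150 TPM in MI6h_R, 907 to 1560 in MI1h_R and 741 to 1280 in MI24h, against 1410 to 2030 in Sham. The part of these markers in the results was not tested.

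The groups with F were compared with Sham in the same way. Xirp2 and Flnc again rose in all 3 groups, Xirp1 was called in none under TMM scaling, and Fhl2 and Cryab fell in all 3. Of the 7 stress genes 2 rose and 4 fell in MI6h_F, 2 rose and 2 fell in MI1h_F, and 2 rose and 4 fell in MI24h_F. In MI6h_F 2 of the 31 genes rose and 26 fell, where 28.6% of all genes rose, 28.5% fell and 57.2% were called. In MI1h_F 2 rose and 20 fell, where 23.9% of all genes rose, 24.2% fell and 48.2% were called. In MI24h_F 2 rose and 27 fell, where 30.7% of all genes rose, 30.1% fell and 60.8% were called. Medians of the 31 were -3.04 in MI6h_F, -1.96 in MI1h_F and -3.76 in MI24h_F, beside 0.04, 0.03 and 0.06 for all genes. With library size alone the members' calls were 2 up and 20 down in MI6h_F, 6 up and 18 down in MI1h_F, and 3 up and 22 down in MI24h_F. On log2(TPM + 1) they were 2 up and 20 down in MI6h_F, 7 up and 16 down in MI1h_F, and 3 up and 21 down in MI24h_F. Of the 10 other heart muscle markers 10 fell in MI6h_F, 9 in MI1h_F and 10 in MI24h_F, and they summed to 2160 to 8430 TPM in MI6h_F, 6400 to 13400 in MI1h_F and 1770 to 3120 in MI24h_F, against 32000 to 42800 in Sham. Their part in the result was not tested.

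Xirp2 stood at 2388, 1933 and 1756 scaled CPM in MI6h_F, 2127, 1955 and 2261 in MI1h_F and 853, 1686 and 1288 in MI24h_F. Over Sham, Xirp2 rose by 2.33 ± 0.27 in MI6h_F, 2.40 ± 0.27 in MI1h_F and 1.67 ± 0.27 in MI24h_F. Flnc stood at 797, 626 and 628 scaled CPM in MI6h_F, 786, 905 and 1563 in MI1h_F and 422, 762 and 624 in MI24h_F. Flnc rose by 1.08 ± 0.29 in MI6h_F, 1.74 ± 0.29 in MI1h_F and 0.89 ± 0.29 in MI24h_F, and the call in MI24h_F was lost without MI24h_F replicate 2 (0.69). With the length trend removed Flnc was at 0.58 in MI6h_F (not called) and 0.49 in MI24h_F (not called). Xirp1 stood at 109, 101 and 92.9 scaled CPM in MI6h_F, 119, 128 and 174 in MI1h_F and 75.4, 187 and 147 in MI24h_F. In scaled CPM Xirp1 overlapped Sham in all 3 groups, at -0.14 ± 0.37 in MI6h_F, 0.33 ± 0.37 in MI1h_F and 0.29 ± 0.37 in MI24h_F, none called. Xirp1 was, on log2(TPM + 1), at 0.96 in MI6h_F (not called), 1.41 in MI1h_F (called) and 1.22 in MI24h_F (called), and with library size alone at 0.63 in MI6h_F (not called), 1.10 in MI1h_F (called) and 1.02 in MI24h_F (called). Fhl2 stood at 69.5, 23.1 and 28.6 scaled CPM in MI6h_F, 68.3, 124 and 145 in MI1h_F and 18.3, 27.4 and 22.6 in MI24h_F. Fhl2 fell, with log2 fold changes of -4.51 ± 0.41 in MI6h_F, -3.03 ± 0.38 in MI1h_F and -5.33 ± 0.43 in MI24h_F. Csrp3 stood at 1089, 652 and 656 scaled CPM in MI6h_F, 915, 1616 and 2404 in MI1h_F and 355, 683 and 599 in MI24h_F. Csrp3 fell, at -1.10 ± 0.43 in MI6h_F and -1.65 ± 0.43 in MI24h_F, and was at -0.06 ± 0.42 in MI1h_F, not called. The call in MI6h_F was lost without Sham replicate 31 (-0.48), without MI6h_F replicate 2 (-0.97) or without MI6h_F replicate 4 (-0.97), and the value in MI24h_F was -1.01 without Sham replicate 31. Csrp3 was, on log2(TPM + 1), at 0.11 in MI6h_F (not called), 1.13 in MI1h_F (called) and -0.50 in MI24h_F (not called), and with library size alone at -0.32 in MI6h_F (not called), 0.71 in MI1h_F (not called) and -0.91 in MI24h_F (not called).

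Hspb7 stood at 1047, 544 and 567 scaled CPM in MI6h_F, 975, 1481 and 2069 in MI1h_F and 339.9, 688 and 659 in MI24h_F. Hspb7 fell, at -1.44 ± 0.32 in MI6h_F and -1.80 ± 0.33 in MI24h_F, without overlap with Sham, and was at -0.37 ± 0.32 in MI1h_F, not called. Hspb7 was, on log2(TPM + 1), at -0.41 in MI6h_F (not called) and -0.82 in MI24h_F (called), and with library size alone at -0.65 in MI6h_F (not called) and -1.05 in MI24h_F (called). Cryab stood at 1518, 1240 and 961 scaled CPM in MI6h_F, 1338, 1481 and 2176 in MI1h_F and 748, 1171 and 884 in MI24h_F. Cryab fell, with log2 fold changes of -1.304 ± 0.34 in MI6h_F, -0.88 ± 0.34 in MI1h_F and -1.71 ± 0.35 in MI24h_F. In MI1h_F that call was lost without Sham replicate 31 (-0.73), without Sham replicate 41 (-0.81), without MI1h_F replicate 1 (-0.74) or without MI1h_F replicate 4 (-0.80). Cryab was, on log2(TPM + 1), at -0.27 in MI6h_F (not called), 0.23 in MI1h_F (not called) and -0.73 in MI24h_F (not called), and with library size alone at -0.50 in MI6h_F (not called), -0.08 in MI1h_F (not called) and -0.95 in MI24h_F (called).

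Of the 20 structural genes 18 fell in MI6h_F, 15 in MI1h_F and 19 in MI24h_F. The 18 in MI6h_F include the uncertain Myl2 row. Myl3 stood at 875, 338 and 364 scaled CPM in MI6h_F, 944, 1613 and 1637 in MI1h_F and 223, 594 and 537 in MI24h_F. Tnnt2 stood at 1069, 427 and 344 scaled CPM in MI6h_F, 878, 1288 and 1825 in MI1h_F and 233, 479 and 439.7 in MI24h_F. Des stood at 3314, 2920 and 2348 scaled CPM in MI6h_F, 3052, 4615 and 5218 in MI1h_F and 1887, 3142 and 2185 in MI24h_F. The lowest of all 21 libraries for these 3 genes was MI24h_F replicate 1. Myl3 fell, with log2 fold changes of -4.16 ± 0.50 in MI6h_F, -2.75 ± 0.47 in MI1h_F and -4.38 ± 0.50 in MI24h_F, and Tnnt2 with -3.86 ± 0.52 in MI6h_F, -2.74 ± 0.49 in MI1h_F and -4.54 ± 0.53 in MI24h_F. Des fell, at -0.89 ± 0.29 in MI24h_F (edgeR adjusted p = 0.0143) and was not called by edgeR under TMM scaling in the other injured groups. That call was lost without Sham replicate 31 (-0.67), without MI24h_F replicate 1 (-0.74) or without MI24h_F replicate 4 (-0.82), and on log2(TPM + 1) the value was 0.15, while with library size alone it was -0.13, neither called. In MI6h_F Des was called by DESeq2, by limma-voom and by edgeR without Sham replicate 11. In MI1h_F it was called on log2(TPM + 1) and with library size alone. In MI24h_F Synpo2l fell, at -1.302 ± 0.43, a call lost without Sham replicate 11 (-0.80) or without MI24h_F replicate 1 (-1.07). Synpo2l was, on log2(TPM + 1), at -0.21 in MI24h_F (not called), and with library size alone at -0.58 in MI24h_F (not called). Actc1 was, on log2(TPM + 1), at -0.70 in MI1h_F (not called) and Nexn and Tnnc1 at -0.32 in MI1h_F (not called) and -0.75 in MI1h_F (not called).

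Among low and borderline genes with F, Myl7 fell, with log2 fold changes of -3.83 ± 1.32 in MI6h_F, -5.67 ± 1.51 in MI1h_F and -4.38 ± 1.38 in MI24h_F. Its call in MI6h_F was lost without Sham replicate 41 (-2.29), without MI6h_F replicate 2 (-3.32) or without MI6h_F replicate 4 (-3.62), and in MI24h_F without Sham replicate 41 (-2.83). Pdlim5 fell, at -0.55 ± 0.19 in MI6h_F, a call lost without Sham replicate 11 (-0.47), without MI6h_F replicate 2 (-0.44) or without MI6h_F replicate 4 (-0.47). Smyd1 fell, at -2.14 ± 0.73 in MI6h_F, a call lost without Sham replicate 11 (-1.48), without MI6h_F replicate 2 (-1.98) or without MI6h_F replicate 4 (-1.73). With library size alone Myl7 was at -2.89 in MI6h_F (not called), Pdlim5 at 0.24 in MI6h_F (not called) and -0.07 in MI24h_F (not called) and Smyd1 at -1.37 in MI6h_F (not called). Ky had 28, 15 and 0 counts in MI6h_F, 46, 91 and 75 in MI1h_F and 4, 4 and 7 in MI24h_F, and fell, with log2 fold changes of -5.90 ± 0.84 in MI6h_F, -3.63 ± 0.73 in MI1h_F and -7.33 ± 0.93 in MI24h_F.

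Among the injured groups without F, few genes of the set differed. In MI1h_R against MI24h 1 of the 31 genes rose and 0 fell, where 1.51% of all genes rose, 2.81% fell and 4.32% were called. It was the uncertain Myl2 row, at 3.61 ± 0.83 (edgeR adjusted p = 0.0197), a call lost without MI1h_R replicate 31 (3.75), without MI24h replicate 11 (3.66) or without MI24h replicate 21 (3.33). Xirp1 was not called there, at 120.7 to 316.5 scaled CPM in MI1h_R, against 289.3 to 609 in MI24h, with overlap. It was called by DESeq2, by limma-voom, with the length trend removed, and by edgeR without MI1h_R replicate 41. In MI6h_R against MI24h edgeR called 0 of the 31, where 0.111% of all genes rose, 0.392% fell and 0.502% were called. There 3 of the 31 had an unadjusted p under 0.05, and DESeq2 and limma-voom called 0 and 0. In MI6h_R against MI1h_R 2 of the 31 fell and 0 rose, where 1.26% of all genes fell, 1.15% rose and 2.41% were called.

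Those 2 were the Myl2 row, which fell, at -4.78 ± 0.90, and Actc1, which fell, at -1.79 ± 0.42 (edgeR adjusted p = 0.0385). The Myl2 call was lost without MI6h_R replicate 11 (-5.39) or without MI6h_R replicate 21 (-4.47). Actc1 was at 1176, 878 and 1040 scaled CPM in MI6h_R, against 3797, 4460 and 2423 in MI1h_R, without overlap, and its call was lost without MI1h_R replicate 11 (-1.74), without MI1h_R replicate 31 (-1.59), without MI6h_R replicate 11 (-1.89), without MI6h_R replicate 21 (-1.68) or without MI6h_R replicate 31 (-1.79). In this comparison DESeq2 called 6 of the 31 and limma-voom 15, and edgeR called 6 without MI1h_R replicate 41. The shares of all genes given are those of edgeR on all libraries, and none was computed for the other methods. Medians of the 31 were 0.30 in MI1h_R against MI24h, -0.40 in MI6h_R against MI24h and -0.68 in MI6h_R against MI1h_R, beside 0.00, -0.01 and -0.01 for all genes.

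Among the groups with F, MI1h_F held more of most of the set than MI24h_F. In MI1h_F against MI24h_F 21 of the 31 rose and 0 fell, where 8.87% of all genes rose, 6.74% fell and 15.6% were called. They were 15 of 20 structural, 3 of 7 stress and 3 of 4 assembly genes, and the median of the 31 was 1.63, beside 0.03 for all genes. Tnni3 was at 817, 1203 and 1597 scaled CPM in MI1h_F, against 166, 398 and 301 in MI24h_F, a rise of 2.06 ± 0.46 (edgeR adjusted p = 0.00821). Actc1 was at 3286, 4002 and 3557 scaled CPM in MI1h_F, against 668, 999.6 and 844 in MI24h_F, a rise of 2.11 ± 0.43. Fhl2 rose by 2.30 ± 0.37 and Synpo2l, at 113, 185 and 252 scaled CPM in MI1h_F, against 26.6, 47.1 and 50.1 in MI24h_F, by 2.15 ± 0.44. None of these 4 genes overlapped between the groups. Xirp2 at 0.73 ± 0.26, Flnc at 0.85 ± 0.29 and Xirp1 at 0.04 ± 0.37 were not called.

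The other genes called in MI1h_F against MI24h_F followed by role. Mybpc3 was at 320, 693 and 687 scaled CPM in MI1h_F, against 84.9, 142 and 129 in MI24h_F, a rise of 2.26 ± 0.51. Myom2 was at 166, 372 and 335 scaled CPM in MI1h_F, against 30.3, 75 and 79 in MI24h_F, a rise of 2.24 ± 0.63. Both thick filament genes were higher in every MI1h_F library. Tpm1 was at 1700, 2290 and 2712 scaled CPM in MI1h_F, against 529.7, 1000 and 754 in MI24h_F, a rise of 1.55 ± 0.31. Tmod1 was at 63.5, 107 and 151 scaled CPM in MI1h_F, against 32.1, 53.9 and 49.6 in MI24h_F, a rise of 1.24 ± 0.38. Nexn was at 61.8, 69.3 and 81.5 scaled CPM in MI1h_F, against 19.5, 41.6 and 35.4 in MI24h_F, a rise of 1.14 ± 0.30. These thin filament genes did not overlap between the groups, nor did Lmod3. Lmod3 was at 4.03, 4.08 and 5.83 scaled CPM in MI1h_F, against 0.605, 1.08 and 0.367 in MI24h_F, a rise of 2.73 ± 0.61. Actn2 was at 404, 752 and 964 scaled CPM in MI1h_F, against 119.7, 250 and 196 in MI24h_F, a rise of 1.91 ± 0.41. Myoz2 was at 235, 303 and 449 scaled CPM in MI1h_F, against 63.2, 119 and 102 in MI24h_F, a rise of 1.80 ± 0.48. Among Z-disc genes the groups were also apart for Smpx and Pdlim5. Smpx was at 69.1, 91.8 and 122.8 scaled CPM in MI1h_F, against 19.6, 36.7 and 26.3 in MI24h_F, a rise of 1.78 ± 0.36. Pdlim5 was at 106, 119 and 153 scaled CPM in MI1h_F, against 62, 69.8 and 77.1 in MI24h_F, a rise of 0.85 ± 0.19. The assembly genes Unc45b, Smyd1 and Ky rose as well, without overlap. Unc45b was at 36.1, 58.6 and 62.1 scaled CPM in MI1h_F, against 12.6, 14.8 and 13.4 in MI24h_F, a rise of 1.94 ± 0.40. Smyd1 was at 23.3, 45.9 and 51.9 scaled CPM in MI1h_F, against 4.69, 5.53 and 8.88 in MI24h_F, a rise of 2.66 ± 0.76. Ky rose by 3.69 ± 0.89, Myl3 by 1.63 ± 0.45 and Tnnt2 by 1.79 ± 0.47, and the stress genes Csrp3 by 1.59 ± 0.43 and Hspb7 by 1.42 ± 0.32.

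All 10 other heart muscle markers also rose in MI1h_F against MI24h_F, and their summed TPM was 6400 to 13400 in MI1h_F, against 1770 to 3120 in MI24h_F. Neutrophil markers summed to 923 to 2630 TPM in MI1h_F, against 3830 to 5830 in MI24h_F, and 4 of 7 fell. Of 8 fibroblast markers 5 rose, and they summed to 2760 to 3400 TPM in MI1h_F, against 1360 to 1560 in MI24h_F. Of 3 smooth muscle markers 2 rose, and they summed to 1990 to 2930 TPM in MI1h_F, against 1070 to 1750 in MI24h_F. These 3 include Des, itself a gene of the set and not called here, which made up most of the sum. Des alone was at 1814 to 2785 TPM in MI1h_F, against 1036 to 1724 in MI24h_F. The part of these markers in the result was not tested. The members' count was 14 without MI1h_F replicate 4, 11 without MI1h_F replicate 5 and 12 without MI24h_F replicate 1.

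In MI6h_F against MI24h_F edgeR called 0 of the 31, where 0.145% of all genes rose, 0.341% fell and 0.485% were called. There 8 had an unadjusted p under 0.05, and DESeq2 and limma-voom called 0 and 0. In MI6h_F against MI1h_F edgeR called 0 of the 31, where 0% of all genes were called. There 20 had an unadjusted p under 0.05, DESeq2 called 2 and limma-voom 19. The share of all genes that DESeq2 and limma-voom called was not computed. Without MI6h_F replicate 1, the highest of its group in 30 of the 31 genes, edgeR called 8.

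F was then compared with no F within each injury, and over the injuries together. Titles numbered the libraries with F in another way than those without, and no Sham library had F. A difference with F thus cannot be told apart from anything else that differed between these sets of libraries. Averaged over the injuries, with 9 libraries against 9, 7 of the 31 genes fell and 0 rose, where 15.7% of all genes fell, 11.3% rose and 27.1% were called. The 7 of 31 called in either direction were no larger a share than the 27.1% of all genes. Of the stress genes 5 of 7 fell, of the structural genes 2 of 20, and of the assembly genes 0 of 4. Median log2 fold changes were -1.09 for the stress genes, -0.35 for the structural genes and -0.06 for the assembly genes, beside -0.02 for all genes tested.

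Xirp1 fell, at -1.35 ± 0.22 with F (edgeR adjusted p = 0.000322). It was at 109, 101 and 92.9 scaled CPM in MI6h_F, against 299, 336 and 489 in MI6h_R, at 119, 128 and 174 scaled CPM in MI1h_F, against 147, 121 and 316 in MI1h_R, and at 75.4, 187 and 147 scaled CPM in MI24h_F, against 609, 414 and 289 in MI24h. The groups overlapped for early reperfusion and not for the other injuries. Flnc fell, at -1.15 ± 0.17 (edgeR adjusted p = 0.000147). It was at 797, 626 and 628 scaled CPM in MI6h_F, against 1956, 2017 and 2431 in MI6h_R, at 786, 905 and 1563 scaled CPM in MI1h_F, against 1085, 883 and 1748 in MI1h_R, and at 422, 762 and 624 scaled CPM in MI24h_F, against 2128, 1911 and 1531 in MI24h, with the same pattern of overlap.

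Csrp3 fell, at -1.16 ± 0.25 (edgeR adjusted p = 0.00227), Hspb7 at -1.09 ± 0.18 (edgeR adjusted p = 0.000468) and Fhl2 at -0.80 ± 0.21. The structural genes that fell were Des, at -0.70 ± 0.17, and Tpm1, at -0.66 ± 0.17. Xirp2 was at -0.19 ± 0.15 and Cryab at -0.49 ± 0.20, not called. Xirp1 over Xirp2 in TPM was 0.105 to 0.121 in MI6h_F, against 0.34 to 0.46 in MI6h_R, and 0.215 to 0.231 in MI24h_F, against 0.317 to 0.768 in MI24h, without overlap in either pair. In MI1h_F it was 0.116 to 0.156, against 0.117 to 0.318 in MI1h_R, which overlapped. The count of 7 was 11 without MI6h_F replicate 1, when Myl3, Tnni3, Smpx and Unc45b were also called.

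**Figure D5:**
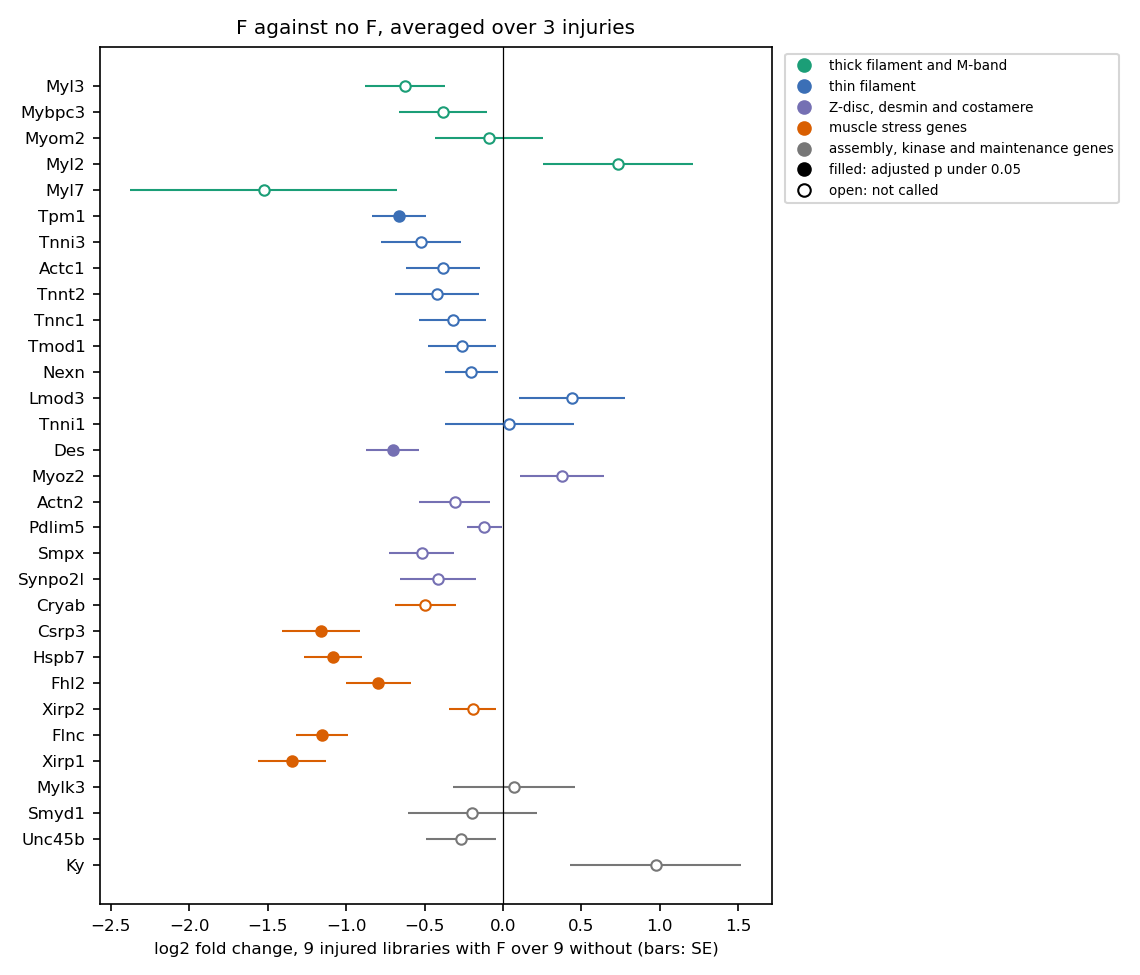
Log2 fold change of each of the 31 genes with F over without F, averaged over the 3 injuries (9 libraries each), with its standard error; filled points passed an edgeR adjusted p under 0.05. The 7 filled points are Xirp1, Csrp3, Flnc, Hspb7, Fhl2, Des and Tpm1, all below 0.

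Within late reperfusion, MI6h_F against MI6h_R, 3 of the 31 fell and 0 rose, where 5.71% of all genes fell, 3.92% rose and 9.62% were called. Xirp1 fell, at -1.89 ± 0.38 (edgeR adjusted p = 0.00762), Flnc at -1.64 ± 0.29 (edgeR adjusted p = 0.00463) and Hspb7 at -1.13 ± 0.32 (edgeR adjusted p = 0.0339). All 3 are stress genes, and the median of the 20 structural genes was -0.06. For the set as a whole, 3 of 31 called in either direction was near the 9.62% of all genes. Hspb7 was at 1047, 544 and 567 scaled CPM in MI6h_F, against 1534, 1128 and 2059 in MI6h_R. Its call was lost without MI6h_R replicate 11 (-1.15), without MI6h_R replicate 31 (-0.89), without MI6h_F replicate 2 (-0.96) or without MI6h_F replicate 4 (-0.98). Of 8 fibroblast markers 4 rose in this comparison, and they summed to 1360 to 3060 TPM in MI6h_F, against 759 to 1150 in MI6h_R; their part was not tested.

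Within permanent ligation, MI24h_F against MI24h, 15 of the 31 fell and 0 rose, where 7.78% of all genes fell, 5.19% rose and 13% were called. They were 6 of 7 stress genes, 8 of 20 structural genes and 1 of 4 assembly genes. Hspb7 fell, at -1.87 ± 0.33, Fhl2 at -1.94 ± 0.37 and Flnc at -1.62 ± 0.29. Fhl2 was at 18.3, 27.4 and 22.6 scaled CPM in MI24h_F, against 68.6, 89.9 and 103 in MI24h, and Hspb7 at 339.9, 688 and 659 scaled CPM in MI24h_F, against 1794, 2105 and 2274 in MI24h. Csrp3 fell, at -1.97 ± 0.44, and stood at 355, 683 and 599 scaled CPM in MI24h_F, against 1529, 1947 and 2942 in MI24h. None of these genes overlapped between the groups.

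Structural genes that fell in MI24h_F against MI24h were Myl3, Tnni3, Actc1, Tpm1, Actn2, Des, Smpx and Synpo2l. Actn2 was at 119.7, 250 and 196 scaled CPM in MI24h_F, against 369.9, 535 and 522 in MI24h, and fell, at -1.33 ± 0.40. Smpx was at 19.6, 36.7 and 26.3 scaled CPM in MI24h_F, against 55.2, 75.8 and 101 in MI24h, and fell, at -1.49 ± 0.36. Synpo2l was at 26.6, 47.1 and 50.1 scaled CPM in MI24h_F, against 88.9, 169.5 and 98 in MI24h, and fell, at -1.53 ± 0.43. The groups did not overlap for any of the 15 genes called. These were chosen by their calls in this same comparison, so the lack of overlap is no added support. It also has no share over all genes tested beside it. The others fell, with log2 fold changes of -1.43 ± 0.45 for Myl3, -1.55 ± 0.45 for Tnni3, -1.498 ± 0.42 for Actc1, -1.28 ± 0.30 for Tpm1, -1.25 ± 0.30 for Des, -1.14 ± 0.34 for Cryab, -1.68 ± 0.38 for Xirp1 and -1.29 ± 0.40 for Unc45b. The members' count was 3 without MI24h_F replicate 1, when Hspb7, Fhl2 and Flnc were called, 6 without MI24h replicate 41, 8 without MI24h replicate 21 and 9 without MI24h_F replicate 4. Replicate 1 of MI24h_F was the lowest of its group in 28 of the 31 genes. Of the 10 other heart muscle markers 4 fell, and they summed to 1770 to 3120 TPM in MI24h_F, against 6120 to 7140 in MI24h, and their part in the result was not tested.

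Within early reperfusion, MI1h_F against MI1h_R, edgeR called 0 of the 31, where 0.0511% of all genes fell, 0.0255% rose and 0.0766% were called. There 2 had an unadjusted p under 0.05, DESeq2 called 0 and limma-voom 3, with no share of all genes computed for these methods. The median of the 31 was 0.02, and that of the stress genes -0.19, beside 0.00 for all genes. Csrp3 was at 915, 1616 and 2404 scaled CPM in MI1h_F, against 2590, 2531 and 1815 in MI1h_R, with overlap.

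Whether the difference between libraries with and without F varied by injury was tested directly. For early reperfusion less permanent ligation edgeR called 0 of the 31, where 0% of all genes were called, with 20 at an unadjusted p under 0.05. The lowest edgeR adjusted p was 0.154, that of Fhl2 at 2.06 ± 0.51, while DESeq2 called 6 and limma-voom 15. No share of all genes was computed for DESeq2 or limma-voom. For late reperfusion less permanent ligation edgeR called 0, where 0% of all genes were called, with 8 at an unadjusted p under 0.05, and DESeq2 and limma-voom called 0 and 0. For late less early reperfusion edgeR called 0, where 0.00852% of all genes were called, with 6 at an unadjusted p under 0.05, and DESeq2 and limma-voom called 0 and 3.

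The stress minus structural means were also lower with F. They were 1.45, 1.72 and 2.04 in MI6h_F, against 2.504, 2.92 and 2.33 in MI6h_R. They were 1.41, 1.48 and 1.62 in MI1h_F, against 1.82, 1.67 and 1.95 in MI1h_R, and 1.78, 1.83 and 1.75 in MI24h_F, against 2.58, 2.42 and 2.21 in MI24h. No library with F reached the lowest library of its injury without F. The mean difference over the 18 was -0.59, with an SD of 0.207 over the libraries with F, and it was -0.32 with the wider stress list. With medians over genes it was -0.12, beside an SD of 0.485 over the libraries with F. Of the 41 related genes 18 fell with F on average and 0 rose, with the small heat shock gene Hspb8 falling, at -0.73 ± 0.14, the fast troponin T gene Tnnt3 at -1.496 ± 0.29 and Hspb2 at -0.87 ± 0.19. Beside this, 2 of 2 red cell markers and 5 of 8 fibroblast markers rose on average with F, 2 of 10 heart muscle markers fell, and their part in the result was not tested.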

How the data were processed

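Bulk RNA-seq of 21 libraries was used, and each library was matched to its group by its title. The deposited tables hold expected counts and TPM per gene symbol, as the authors made them. The submitters' processing notes name STAR 2.7.3a, RSEM 1.3.1 and build rn7, without their order. The gene annotation and strandedness are not given in the sources used here. Libraries were made from mRNA of total RNA, per the labels' protocols. The expected counts were whole numbers in the deposited file and were used as such.

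Genes with low counts were removed with filterByExpr over the 7 groups, which left 11742 of 17085. Libraries were scaled with TMM, and edgeR 4.0.16 in R 4.3.3 fitted 1 quasi-likelihood model with 14 residual degrees of freedom, from which 19 contrasts were taken. Results were also computed with DESeq2 1.42.0, with limma 3.58.1 (voom weighted by sample quality, and a trend fit on log2(TPM + 1)), with other scaling, no filter, no mitochondrial genes, a length trend removed, a replicate block, and each library left out. The code was tested on simulated data. The number of libraries, 3 a group, and totals of 12208041 to 18393795 counts limit the precision. The members and lists were chosen with earlier results of these data known. Values in every library were given for the genes of each role highest in mean TPM over all libraries (up to 3 a role), the stress genes, Myl7, Tnni1 and genes called between injured groups or for F.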

Additional observations from a re-analysis of the deposited data

How the results depend on the processing

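Of 200 called values of single genes, alternatives gave 2783 values on the same side of the threshold, 192 no longer called and 5 of the opposite sign. The 5 were Cryab in MI6h_R (0.10), Des in MI24h_F (0.15), Cryab in MI1h_F (0.23) and Csrp3 in MI6h_F (0.11) against Sham on log2(TPM + 1), and Pdlim5 in MI6h_F against Sham (0.24) with library size alone. The cause was not tested. DESeq2 called 2 members in MI1h_R against MI24h, 6 in MI6h_R against MI1h_R, 2 in MI6h_F against MI1h_F and 6 for the difference of F effects between early reperfusion and permanent ligation. For the same results limma-voom called 2, 15, 19 and 15, and it called 3 in MI1h_F against MI1h_R, 11 for F on average and 3 for the difference of F effects between late and early reperfusion. Shares of all genes were not computed for DESeq2 or limma-voom. With the length trend removed 2 were called in MI1h_R against MI24h. Stress minus structural means were 1.801 and 0.207 above Sham without F, and -0.322 and -0.118 with F over without, for the wider stress list and for medians over genes, beside 2.668 and -0.591.

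With each library left out in turn, calls were 0 to 2 in MI1h_R against MI24h, 0 to 6 in MI6h_R against MI1h_R, 11 to 24 in MI1h_F against MI24h_F, 0 to 8 in MI6h_F against MI1h_F, 3 to 14 in MI24h_F against MI24h and 7 to 11 for F on average. Replicate numbers did not pair the libraries: 5 of 20 same-numbered pairs had a correlation over 0.1 (range -0.61 to 0.366), and their own number was the best match for 1 of the 12 libraries lacking F and for 0 of the other 9. With a replicate block, 0 members were called in MI1h_R against MI24h, MI6h_R against MI1h_R and MI1h_F against MI24h_F. Rows of few counts (Myl2, Myl7, Tnni1 and Ky) limit what depth can show.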
